A study of Mus musculus with 8 samples.

Results

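Converted hair cells (cHCs) of the mouse organ of Corti were compared between postnatal days 33 and 26 (P33 and P26). Organ of Corti tissue was profiled by droplet single-cell RNA sequencing. Cells were selected on measured values, and a cell was taken as a cHC where it had 500 or more detected genes, under 25% mitochondrial (mt-) unique molecular identifiers (UMIs, tags that mark 1 captured transcript each), at least 5 UMIs of Atoh1, at least 2 of Pou4f3 and at most 2 of Ocm. The rule was met by 73 of the 8061 barcodes of the series and by 73 of 2589 kept cells of the 4 libraries compared. These were 12 and 4 cells of Coch + Tmx P26 replicates 1 and 2 and 31 and 26 cells of Coch + Tmx P33 replicates 1 and 2, so 16 cells at P26 stood against 57 at P33. Every animal carried the Fgfr3iCre, Atoh1-HA, Chrna9-GFP and Rosa26-CAG-loxP-stop-loxP-tdTomato alleles, and the animals of these libraries received tamoxifen at P12 and P13. The Cre is driven from Fgfr3, so the Atoh1 transgene was switched on in supporting cells (SCs) that use that gene, which in the organ of Corti are mainly Deiters' and pillar cells. Replicate 3 of the induced P26 group, 2 uninduced P12 libraries and 1 uninduced P33 library held no cell that met the rule. That P26 library was left out of the comparison because of that. Nothing in the labels says whether libraries came from single or pooled animals. The p-values therefore cover only the spread between these libraries, estimated with information shared across genes.

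Atoh1 is the basic helix-loop-helix transcription factor that starts hair cell (HC) development, and Pou4f3 is a transcription factor of HCs that keeps them alive. Ocm encodes oncomodulin, a calcium buffer that is abundant in mature outer HCs, so the limit on it kept native outer HCs out. In the adult mammalian cochlea SCs do not replace lost HCs, and forced Atoh1 expression can turn some of them into HC-like cells that lack parts of the mature HC programme.

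The 4 libraries held 3972800 to 7525002 UMIs, with medians of 3538 to 6690.5 UMIs per kept cell. The cHC label was checked against its markers. Of 15 HC markers, Pou4f3 among them, 14 or 15 were detected in the cHCs of each library, at 13351 to 15867 counts per 1000000 UMIs (CPM) in sum, against 1824 to 4990 CPM in SC-gated cells of the same libraries, a gate without Pou4f3. Markers of inner HCs summed to 123 to 265 CPM in cHCs, and those of outer HCs, a list with Ocm in it, to 73.2 to 224 CPM. Of 12 SC markers, 9 to 11 were detected, at 6451 to 9342 CPM, against 13230 to 30646 CPM in SC-gated cells, which were gated on 8 of them. In cells gated as HCs on Pou4f3 and at least 3 Ocm UMIs, the HC list summed to 4904 to 11988 CPM. The SC list summed there to 10186 to 25192 CPM, above the cHCs and overlapping SC-gated cells. This SC sum therefore does not set HCs apart from SCs. In the gated HCs it came from 3 and 2 of the 12 markers at P26 and 10 and 8 at P33, and all 12 were detected in SC-gated cells. The 25192 CPM was from P33 replicate 2, where the gated HCs had a median of 7.5 Ocm UMIs. That median was 71.5 and 431 in the P26 libraries and 133 in P33 replicate 1. Lymphocyte markers were at 0 in all cHCs. Each age had 1 library with high Xist and 1 with Ddx3y, so the sex-linked genes were balanced over the ages. No cHC was called a doublet, and no cHC barcode occurred in a second of these libraries.

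The genes that chose the cells are given as description only. Summed over the cHCs of a library, Atoh1 stood at 3186 and 3206 CPM at P26 and 3068 and 3757 CPM at P33. Pou4f3 stood at 1608 and 761 CPM at P26 and 805 and 847 CPM at P33, so P26 replicate 1 was high and the other 3 libraries lay close together. Ocm had 2 UMIs in all, both in 1 cell of P33 replicate 1. At the edges of the rule, 1 cHC had exactly 5 Atoh1 UMIs, none had exactly 2 Pou4f3 UMIs, and 1 cell with a single Pou4f3 UMI stayed out. The cells that passed on everything but Ocm had 6, 3 and 54 Ocm UMIs. Cells with 5 or more Atoh1 UMIs and no Pou4f3 UMI were more common than those edge cases, with 18 and 1 at P26 and 27 and 27 at P33, and they are not cHCs under the rule.

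Depth and mitochondrial share differed among these cells. The median cHC had 8029.5 and 16512.5 UMIs in the P26 libraries and 13138 and 15414 in the P33 libraries, so P26 replicate 1 was the shallow one. The median mt- share was 6.48% and 6.72% at P26 and 14.03% and 14.2% at P33. No P26 cHC reached 10%, the highest being 9.01%, whereas 44 of the 57 P33 cHCs did. The remaining P33 cells reached down to 0.0376%, with 4 of them under 1%. Mitochondrial share therefore moved with age in these cells, and its part in the gene differences was tested only by leaving out cells or genes.

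**Figure D1:**
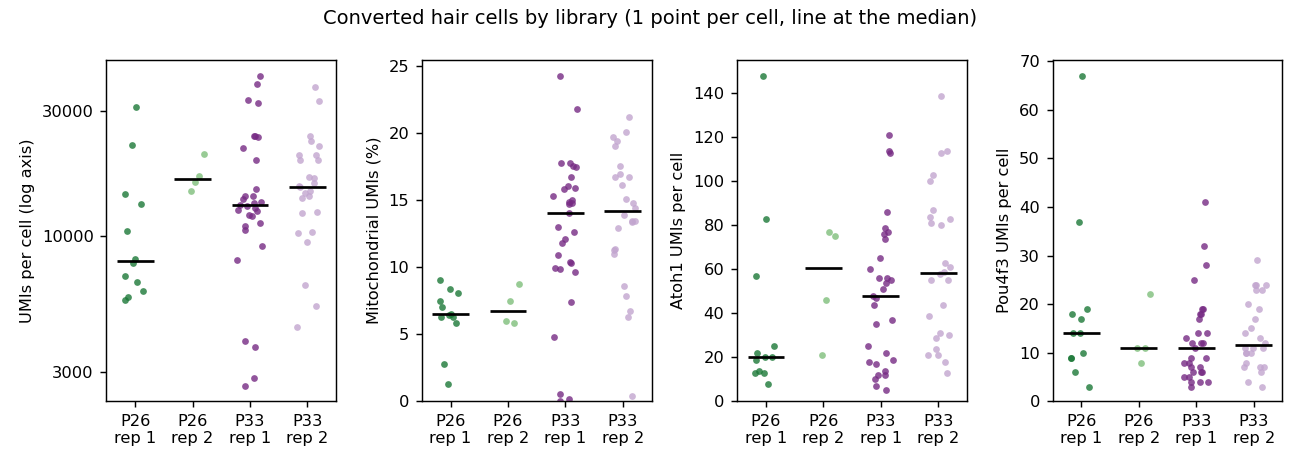
Each point is 1 cHC and each line a library median, with UMIs per cell on a log axis and mt- UMIs in percent, Atoh1 and Pou4f3 UMIs on linear axes. Of the P33 cells 44 lie at 10% mitochondrial UMIs or more, above all 16 P26 cells, while Atoh1 and Pou4f3 UMIs overlap between the ages.

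The share of kept cells that met the rule was 1.498% (95% exact binomial interval 0.776 to 2.60) in P26 replicate 1, 0.703% (0.192 to 1.79) in P26 replicate 2, 6.18% (4.23 to 8.65) in P33 replicate 1 and 3.63% (2.38 to 5.27) in P33 replicate 2. The intervals cover counting error only. Both P33 libraries lay above both P26 libraries, with means of 4.90% ± 1.80 (SD, n = 2) and 1.10% ± 0.562 (SD, n = 2), a difference of 3.80 percentage points. The two-sided exact permutation test gave p = 0.333, which is the smallest p that 2 against 2 libraries allow. The P26 libraries compared were those that held cHCs. P26 replicate 3, with 0 of 590 kept cells, is not in these means or in the test. With cells limited to under 10% mt- UMIs, the shares were 1.57% and 0.723% at P26 and 1.79% and 0.768% at P33, the groups overlapped and the difference was 0.135 percentage points.

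To compare gene expression, UMIs were summed over the cHCs of each library and tested with edgeR's quasi-likelihood test, and its p-values were adjusted by the Benjamini-Hochberg method over every gene in the test. Of 4629 genes tested besides the rule genes, 125 passed an adjusted p of 0.05, which is 2.7% of them. The genes higher at P33 numbered 68 (1.47%) and those lower 57 (1.23%). Without adjustment, 831 genes had p under 0.05. For 124 of the 125 called genes the 2 P33 levels did not overlap the 2 P26 levels, the exception being Tnfrsf12a. The test picked these genes on the same values, and the share without overlap among all genes tested is not given. The lack of overlap, here and for single genes below, is therefore a description and no further support. The median log2 difference over all genes tested was 0.02. The P26 side rested on 207037 UMIs and the P33 side on 919069, and 33 of the 68 higher genes had 5 or fewer UMIs at P26, and 1 UMI was worth 7.21 and 14.6 CPM in the P26 libraries, so the low end of those genes is coarse. DESeq2 called 51 genes.

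The calls were recomputed with libraries and cells left out. Of 46 named genes that passed, 21 lost the call without P26 replicate 1, 3 without P26 replicate 2, 18 without P33 replicate 1 and 16 without P33 replicate 2. In the same order, 2, 1, 5 and 7 of them fell below the filter and could not be tested. The 12 that were tested and passed each time were S100a11, Fcgbp, Alcam, Gsn and Id2 among the higher genes and AY036118, Mbp, Cdh13, Cdkn1a, Tubb2b, Grp and Mdk among the lower genes. Each of these tests left an age with 1 library, which was assumed to vary like the other age. For Gsn and S100a11, 1 cell of P33 replicate 2 held 621 of the 810 and 48 of the 150 UMIs at P33. With that cell left out, S100a11 could not be tested and Gsn did not pass (log2 difference 2.53, edgeR adjusted p = 0.193). With cells limited to under 10% mt- UMIs, 12, 4, 8 and 5 cHCs remained and 7 of 1330 tested genes passed. Of the 125 genes, 61 could then be tested, 60 kept their direction and 5 passed, namely S100a11, Id2, AY036118, Mbp and Nnat, the last a membrane protein of the developing nervous system. That limit also left fewer cells and fewer genes in the test, and these cannot be told apart from the mt- share itself. The P33 cell with most of the Gsn UMIs, at 6.70% mt- UMIs, stayed in under it.

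Chrna10, Xirp2 and Cacng2 rose, the only called genes in the lists of HC channels, stereocilia and outer HC maturation. In these lists 5 of 7, 10 of 20 and 5 of 10 tested genes had log2 differences above 0. Chrna10, the alpha10 subunit of the nicotinic receptor through which efferent nerve fibres act on outer HCs, was at 57.7 and 58.6 CPM at P26 and 209 and 208 CPM at P33 (log2 difference 1.86, SE 0.38, edgeR adjusted p = 0.0239). The libraries of each age nearly coincided and the ages were well apart. Its partner Chrna9 was at 872 and 1229.6 CPM at P26 and 732 and 983 CPM at P33, with overlapping groups and no call (log2 difference -0.24, SE 0.25, edgeR adjusted p = 0.676). Xirp2, an actin-binding protein of stereocilia, had 1 and 1 UMIs at P26 and 35 and 41 UMIs at P33, a ratio of CPM of 8.56 (95% counting interval 2.29 to 72.0) with edgeR adjusted p = 0.0423. Cacng2, also called stargazin, a regulator of AMPA receptors, had 2 and 0 UMIs at P26 and 60 and 36 UMIs at P33, a ratio of 10.8 (95% counting interval 2.91 to 90.6) with edgeR adjusted p = 0.0334. Both were near the floor at P26, and neither had overlapping groups. Over libraries, Cacng2 had a median of 0 CPM in cells gated as HCs and 23.5 CPM in SC-gated cells. Of genes singled out after their values were seen, as were Chrna9, Fgfr3, Sox2 and Pvalb, Kncn, which encodes the kinocilium protein kinocilin, was at 14.4 and 73.2 CPM at P26 and 163 and 185 CPM at P33 (log2 difference 2.33, SE 0.53, edgeR adjusted p = 0.0383), and Rab3b, a small GTPase of secretory vesicles, was at 43.3 and 14.6 CPM at P26 and 229.7 and 215 CPM at P33 (log2 difference 2.75, SE 0.45, edgeR adjusted p = 0.0105). The calls that ended when 1 library was left out, with the edgeR adjusted p reached, were Chrna10 without P26 replicate 1 (0.0981), Xirp2 without P26 replicate 1 (0.260) and without P33 replicate 1 (0.159) (not tested without P33 replicate 2) and Cacng2 without P33 replicate 1 (0.377).

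The HC structure and transcription factor lists had called shares near the 2.7% of all genes. Of 14 tested genes of the mechanotransduction channel and tip link, none passed, 11 were above 0 and the median log2 difference was 0.42 against 0.02 over all genes. Lhfpl5, a subunit of the channel complex, stood at 1038 and 1332 CPM at P26 and 1163 and 1369 CPM at P33, and Cib2, a calcium-binding protein of the same complex, at 2739 and 3337 CPM at P26 and 3233 and 2952 CPM at P33. The groups overlapped for both, with log2 differences of 0.14 and 0.06. Of 20 stereocilia genes only Xirp2 passed, and the median was 0.04. Of 13 ribbon synapse genes none passed, with a median of 0.15. Syt7, a calcium sensor of vesicle release, was at 259.5 and 234 CPM at P26 and 244 and 246 CPM at P33, and Vamp2, a vesicle fusion protein, at 123 and 132 CPM at P26 and 165 and 138 CPM at P33. Of 18 HC transcription factors none passed, with a median of 0.13. Nfia was at 259.5 and 146 CPM at P26 and 533 and 409.6 CPM at P33 (log2 difference 1.16, SE 0.32, edgeR adjusted p = 0.0717) and Barhl1, which HCs need to survive, at 209 and 307 CPM at P26 and 398 and 321 CPM at P33 (log2 difference 0.56, SE 0.29, edgeR adjusted p = 0.330). Both were higher in each P33 library than in each P26 library without passing the test.

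Genes that Deiters' and pillar cells use were also among those higher at P33. Of 19 tested, 4 rose, none fell and the median log2 difference was 0.73, beside 1.47% of all genes called higher. Id2 and Id1 encode inhibitors that block DNA binding by basic helix-loop-helix factors. Id2 had 1 and 1 UMIs at P26 and 59 and 100 UMIs at P33, a ratio of 17.9 (95% counting interval 4.88 to 149) with edgeR adjusted p = 0.0114, and Id1 was at 36.0 and 14.6 CPM at P26 and 109.8 and 159 CPM at P33 (log2 difference 2.22, SE 0.53, edgeR adjusted p = 0.0432). Id2 was detected in 1 and 1 cells at P26 and 10 and 25 cells at P33 and Id1 in 4 and 1 cells at P26 and 10 and 19 cells at P33, so both were found in many P33 cells of replicate 2 and in fewer of replicate 1. Slc12a7, a potassium-chloride cotransporter, had 2 and 1 UMIs at P26 and 47 and 67 UMIs at P33, a ratio of 8.56 (95% counting interval 2.86 to 42.1) with edgeR adjusted p = 0.0239. Otog, a protein of the tectorial membrane, had 0 and 0 UMIs at P26 and 38 and 40 UMIs at P33 and was at least 5.86-fold higher at P33 when the P26 group was set to 3 counts (edgeR adjusted p = 0.0153). Its UMIs came from 4 cells in each P33 library, and 1 cell of P33 replicate 2 held 37 of the 40 there. The same cell held 39 of the 67 Slc12a7 UMIs of that library. Without that cell Otog could not be tested, and Slc12a7 and Id1 did not pass (edgeR adjusted p = 0.063 and 0.0544). Only Id2 of these called genes then kept its call (edgeR adjusted p = 0.0177). Of the genes that define SCs, Fgfr3, the receptor whose promoter drove the Cre, was at 281 and 351 CPM at P26 and 181 and 368 CPM at P33 with overlapping groups (edgeR adjusted p = 0.870), and the transcription factor Sox2 was at 296 and 176 CPM at P26 and 148 and 173 CPM at P33 (edgeR adjusted p = 0.345). Leaving out 1 library ended the calls of Slc12a7 without P26 replicate 1 (0.0794) and without P33 replicate 2 (0.143), Id1 without P26 replicate 1 (0.0544) and without P33 replicate 2 (0.12) and Otog without P33 replicate 1 (0.0702) and without P33 replicate 2 (0.173) (edgeR adjusted p).

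Several of the largest increases were in genes with no UMI in the P26 cells. There were 8 called genes of this kind, and their folds are bounds against 3 counts over the P26 group, or 14.5 CPM. S100a11, a calcium-binding S100 protein, had 0 and 0 UMIs at P26 and 90 and 60 UMIs at P33 and was at least 11.3-fold higher (edgeR adjusted p = 0.00619). Wdr24, a subunit of the nutrient-sensing GATOR2 complex, had 0 and 0 UMIs at P26 and 32 and 57 UMIs at P33 and was at least 6.68-fold higher (edgeR adjusted p = 0.0254). Lgals3, which encodes galectin-3, had 0 and 0 UMIs at P26 and 28 and 26 UMIs at P33 and was at least 4.05-fold higher (edgeR adjusted p = 0.0302). In these genes all P33 libraries were above 0. The bounds pool both P33 libraries and do not show a fold in each. Lgals3 was detected in 9 of the 57 P33 cells, and 1 cell of P33 replicate 2 held 24 of its 54 UMIs. The bounds for Faim2, an inhibitor of Fas-mediated cell death, Stk33, a protein kinase, and Dync1i1, a dynein subunit, were 4.66, 4.66 and 3.15-fold, and 9530053A07Rik was the remaining gene. Fcgbp, an IgG Fc-binding protein, had 1 and 0 UMIs at P26 and 99 and 84 UMIs at P33, a ratio of 41.2 (95% counting interval 7.31 to 1637) with edgeR adjusted p = 0.00382. Alcam, a cell adhesion molecule, had 0 and 1 UMIs at P26 and 86 and 47 UMIs at P33, a ratio of 29.96 (95% counting interval 5.29 to 1192) with edgeR adjusted p = 0.0114. Without 1 library, with the edgeR adjusted p in parentheses, the call was lost for Lgals3 without P26 replicate 1 (0.156) (not tested without P33 replicate 1 or without P33 replicate 2), Faim2 without P26 replicate 1 (0.108) and without P33 replicate 2 (0.124) (not tested without P33 replicate 1), Stk33 without P26 replicate 1 (0.108) and without P33 replicate 1 (0.341) (not tested without P33 replicate 2) and Dync1i1 without P26 replicate 1 (0.244) (not tested without P33 replicate 1 or without P33 replicate 2). Wdr24 could not be tested without P33 replicate 2.

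Some of these increases were carried by 1 cell. The deepest cHC of P33 replicate 2, with 37035 UMIs, held 621 of the 654 Gsn UMIs and 119 of the 127 Anxa2 UMIs of its library. Gsn encodes the actin-severing protein gelsolin, and Anxa2 encodes annexin A2, which binds membranes in the presence of calcium. The same cell held 48 of the 60 S100a11, 24 of the 26 Lgals3, 37 of the 40 Otog and 39 of the 67 Slc12a7 UMIs of the library, and 18 Atoh1 and 6 Pou4f3 UMIs. Gsn had 0 and 7 UMIs at P26 and 156 and 654 UMIs at P33 (log2 difference 4.69, SE 0.93, edgeR adjusted p = 0.0228), and Anxa2 had 1 and 0 UMIs at P26 and 42 and 127 UMIs at P33, a ratio of 38.1 (95% counting interval 6.74 to 1512) with edgeR adjusted p = 0.0296, a call lost without P33 replicate 2 (0.162). Without this cell, S100a11, Lgals3, Otog and Anxa2 fell below the filter and could not be tested. Gsn no longer passed (log2 difference 2.53, edgeR adjusted p = 0.193), nor did Slc12a7 (edgeR adjusted p = 0.063) or Id1 (edgeR adjusted p = 0.0544). Dync1i1, Stmn1 and Mdk missed it at edgeR adjusted p of 0.0505, 0.0669 and 0.0532, and 102 genes were called in all.

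**Figure D2:**
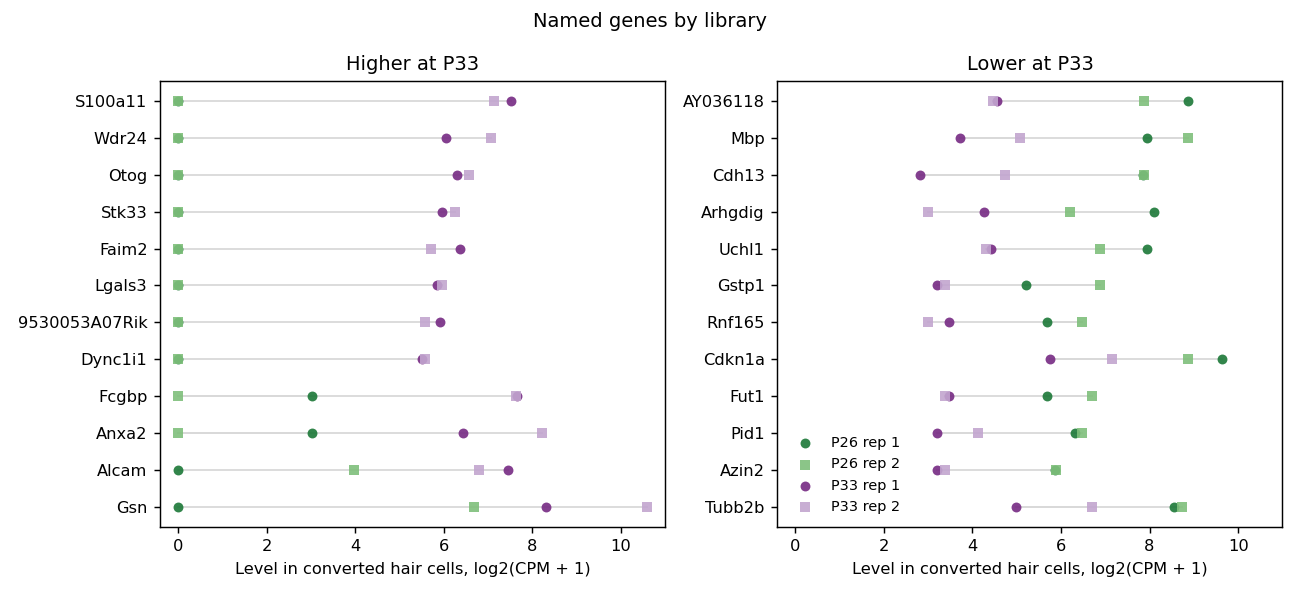
Levels of the 12 genes with the largest log2 differences in each direction, as log2(CPM + 1) of the summed cHCs of each library, with circles for replicate 1 and squares for replicate 2. In the left panel 8 genes sit at 0 in both P26 libraries, and in the right panel every P33 point lies left of both P26 points of its gene.

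The mitochondrially encoded genes rose as a group. They encode subunits of the respiratory chain and ATP synthase and are transcribed from the mitochondrial genome as long precursors. Of 12 tested, 10 rose and none fell, with a median log2 difference of 1.17, beside 1.47% of all genes called higher. mt-Nd1, a subunit of complex I, was at 6358 and 7407 CPM at P26 and 16998 and 16667 CPM at P33 (log2 difference 1.33, SE 0.19, edgeR adjusted p = 0.00619). mt-Atp6 of ATP synthase was at 8939 and 10803 CPM at P26 and 23588 and 22830.1 CPM at P33 (log2 difference 1.27, SE 0.19, edgeR adjusted p = 0.00744), and mt-Co3 of complex IV at 12125 and 14330.3 CPM at P26 and 29205 and 29181 CPM at P33 (log2 difference 1.18, SE 0.19, edgeR adjusted p = 0.00899). mt-Nd4 showed a log2 difference of 1.197 (edgeR adjusted p = 0.0114). The nuclear genes of the same complexes did not follow, with none of 85 called and a median of 0.15. Cox8a was at 1795 and 1888 CPM at P26 and 1671 and 1643 CPM at P33 and Cox4i1 at 1146 and 1156 CPM at P26 and 1112 and 1084 CPM at P33, differences of -0.12 and -0.04 on the log2 scale. Without P33 replicate 1 the call was lost for mt-Nd1 (0.0944), mt-Atp6 (0.158), mt-Co3 (0.229) and mt-Nd4 (0.114) (edgeR adjusted p), and the last 2 also lost it without P33 replicate 2. In the cells under 10% mt- UMIs, a limit that itself bounds these genes, none of the 10 passed. With mitochondrial, hemoglobin and ribosomal protein genes left out, 88 genes of 4585 were called and all 88 were among the 125.

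The genes that fell included Tubb2b, Stmn1, Uchl1, Cdh13 and Arhgdig. Tubb2b, a beta-tubulin of developing neurons, was at 375 and 424 CPM at P26 and 30.5 and 103 CPM at P33 (log2 difference -2.56, SE 0.43, edgeR adjusted p = 0.0114). Stmn1, a microtubule-destabilising protein, was at 1139 and 2591 CPM at P26 and 392 and 770.1 CPM at P33 (log2 difference -1.62, SE 0.37, edgeR adjusted p = 0.0389). Both were lower in each P33 library than in each P26 library. Uchl1, a ubiquitin hydrolase abundant in neurons, was at 245 and 117 CPM at P26 and 20.3 and 18.7 CPM at P33 (log2 difference -3.27, SE 0.46, edgeR adjusted p = 0.00619). Cdh13, a cadherin without a transmembrane part, was at 231 and 234 CPM at P26 and 6.10 and 25.7 CPM at P33 (log2 difference -3.86, SE 0.49, edgeR adjusted p = 0.00382). Arhgdig was at 274 and 73.2 CPM at P26 and 18.3 and 7.02 CPM at P33 (log2 difference -3.86, SE 0.60, edgeR adjusted p = 0.00842). In all 5 genes the 2 ages were apart. Calls ended by leaving out 1 library were Stmn1 without P33 replicate 1 (0.143), Uchl1 without P26 replicate 1 (0.0768) and Arhgdig without P26 replicate 1 (0.367) (edgeR adjusted p). Of 15 tested neurogenic factors and early neuronal genes, Tubb2b and Stmn1 fell, Nhlh1 rose and the median was -0.02. Of all genes tested, 2.7% were called. Nhlh1, a helix-loop-helix factor of young neurons, had 1 and 2 UMIs at P26 and 56 and 52 UMIs at P33, a ratio of 8.11 (95% counting interval 2.70 to 39.9) with edgeR adjusted p = 0.0239, and its call was lost without P26 replicate 1 (0.215). Tmsb4x, which binds actin monomers and was singled out after its values were seen, was at 2934 and 4640.1 CPM at P26 and 1181 and 1112 CPM at P33 (log2 difference -1.68, SE 0.24, edgeR adjusted p = 0.00619).

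Cdkn1a, the p21 inhibitor of cyclin-dependent kinases and a target of p53, was among the largest decreases. It was at 800.2 and 468 CPM at P26 and 52.9 and 140.4 CPM at P33 (log2 difference -2.75, SE 0.40, edgeR adjusted p = 0.00619), was detected in all 16 P26 cells and in 26 of 57 P33 cells, and the ages did not overlap. Gadd45g, a growth arrest and stress gene, was at 245 and 146 CPM at P26 and 69.1 and 65.5 CPM at P33 (log2 difference -1.59, SE 0.36, edgeR adjusted p = 0.0372). These were the 2 genes of 11 tested in the apoptosis and p53 list that passed, and the list median was -0.57. Of all genes tested, 1.23% were called lower. Of 8 cell cycle genes only Cdkn1a passed, with a median of 0.00. Pvalb, the calcium buffer parvalbumin, was at 5464 and 7436 CPM at P26 and 7579 and 7736 CPM at P33, without a call. Leaving out 1 library ended the call of Gadd45g without P26 replicate 1 (0.430) and without P33 replicate 1 (0.0625) and without P33 replicate 2 (0.0638), and edgeR called Cdkn1a each time.

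Ribosomal protein genes lay mostly below 0. Of 81 tested, 76 had a negative log2 difference and the median was -0.48, but only Rps12 and Rps20 passed, beside 1.23% of all genes called lower. Rps12 was at 1881 and 1537 CPM at P26 and 895 and 699.9 CPM at P33 (log2 difference -1.08, SE 0.24, edgeR adjusted p = 0.0339) and Rps20 at 2336 and 1874 CPM at P26 and 1136 and 971 CPM at P33 (log2 difference -0.97, SE 0.23, edgeR adjusted p = 0.0423). The remaining large decreases were of mixed kind. Mbp, the myelin basic protein of glia, was at 245 and 468 CPM at P26 and 12.2 and 32.8 CPM at P33 (log2 difference -3.88, SE 0.46, edgeR adjusted p = 0.00322), and the noncoding transcript AY036118 at 469 and 234 CPM at P26 and 22.4 and 21.1 CPM at P33 (log2 difference -4.04, SE 0.41, edgeR adjusted p = 0.00124). In the other cells of the same libraries their log2 differences were -3.87 and -3.55, neither past the test there. The Schwann and satellite glia markers, of which Mbp was the only one tested, summed to 245 and 468 CPM at P26 and 14.2 and 37.5 CPM at P33 in cHCs, with Prx, Ncmap and Mag at 0, and their part in the result was not tested further. Gstp1, a glutathione transferase, Rnf165, Fut1, Pid1 and Azin2 fell with log2 differences of -2.81, -2.79, -2.74, -2.71 and -2.65, on 20 to 28 UMIs each over the 4 libraries, and each of these 5 lost its call in at least 1 test without a library, as did Rps12 and Rps20.

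Apart from outer HC maturation, with 2 of 10 tested genes called, the other lists had no call or 1 call. The called share of all genes was 2.7%, and in lists this small a single call is a coarse measure. Of 9 Notch genes none passed, with a median of -0.15, and Mfng, a glycosyltransferase that modifies Notch, was at 209 and 205 CPM at P26 and 87.4 and 122 CPM at P33, while the ligand Dll3 was at 173 and 395 CPM at P26 and 193 and 302 CPM at P33. Of 8 immediate early genes none passed, with a median of -0.32, and Btg2 was at 728 and 834 CPM at P26 and 409 and 424 CPM at P33 and Jund at 598 and 644 CPM at P26 and 413 and 494 CPM at P33. Hspa5, the chaperone BiP of the endoplasmic reticulum, was at 180.2 and 132 CPM at P26 and 506 and 342 CPM at P33 (log2 difference 1.42, SE 0.33, edgeR adjusted p = 0.0398) and was the only gene of 16 in the heat shock and unfolded protein list to pass, a call lost without P33 replicate 1 (0.229). Interferon and antigen presentation genes (7 tested, median -0.10), cilia genes (18 tested, median 0.31) and glycolysis genes (10 tested, median 0.00) had no call. None of Mfng, Dll3, Btg2 and Jund was called. Ifitm3 was at 57.7 and 249 CPM at P26 and 65.1 and 98.3 CPM at P33 and H2-D1 at 50.5 and 146 CPM at P26 and 81.3 and 152 CPM at P33. Dynll1 was at 1024 and 703 CPM at P26 and 742 and 714 CPM at P33, Ift20 at 252 and 249 CPM at P26 and 262 and 232 CPM at P33, Aldoa at 786 and 995 CPM at P26 and 888 and 1105 CPM at P33 and Gapdh at 433 and 366 CPM at P26 and 419 and 424 CPM at P33. Among 10 tested outer HC maturation genes, Chrna10 and Cacng2 rose and the median was 0.06, and among 7 channel and efferent synapse genes, Chrna10 rose and the median was 0.63.

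**Figure D3:**
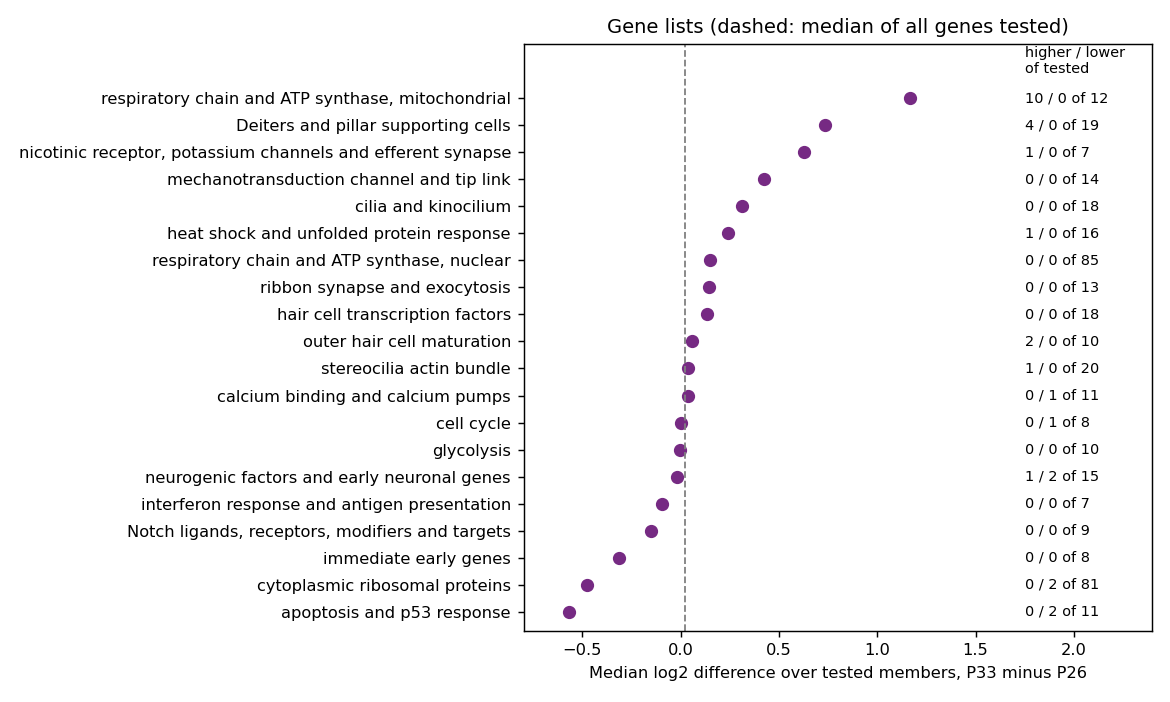
Median log2 difference (P33 minus P26) over the tested members of 20 gene lists, with the numbers called higher and lower beside it and the median of all 4629 genes as a dashed line. The mitochondrially encoded genes lie farthest to the right at 1.17, and the apoptosis and p53 genes farthest to the left at -0.57.

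Atoh1 binds E-box sequences, so the annotated promoters of the called genes were searched for the E-box CAGCTG, which reads the same on both strands. RefSeq promoters (GRCm38.p6, 250 bases before to 50 after each start) were matched by symbol for 42 of the 68 higher and 35 of the 57 lower genes. CAGCTG was present for 10 (23.8%) and 6 (17.1%) of these genes, beside 600 of 3587 tested genes with a promoter (16.7%) and 5355 of 32851 promoters in all (16.3%). The promoters of Id2, Fcgbp and Gadd45g are printed as examples, with the E-box in capitals. Promoters of Gsn, Cacng2, Krt8 and Cdkn1a, which are also called genes described here, held CAGCTG too and are not printed. A match is a description of the letters only. The E-box lies 196 bases before the start in Id2 (chr12:25096043-25096342, minus strand), 208 before it in Fcgbp (chr7:28070986-28071285, plus strand) and 55 before it in Gadd45g (chr13:51846425-51846724, plus strand).
Id2: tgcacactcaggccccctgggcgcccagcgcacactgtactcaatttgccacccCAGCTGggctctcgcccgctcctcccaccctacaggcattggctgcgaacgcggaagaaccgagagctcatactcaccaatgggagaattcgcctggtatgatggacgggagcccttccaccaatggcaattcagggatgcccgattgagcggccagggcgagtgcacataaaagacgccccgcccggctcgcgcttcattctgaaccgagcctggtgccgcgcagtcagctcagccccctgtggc
Fcgbp: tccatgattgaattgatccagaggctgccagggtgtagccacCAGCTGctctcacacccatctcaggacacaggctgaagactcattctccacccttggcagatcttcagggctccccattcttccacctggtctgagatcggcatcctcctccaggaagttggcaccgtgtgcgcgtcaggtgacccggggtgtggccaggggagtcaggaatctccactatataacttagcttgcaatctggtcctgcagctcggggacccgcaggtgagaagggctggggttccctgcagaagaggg
Gadd45g: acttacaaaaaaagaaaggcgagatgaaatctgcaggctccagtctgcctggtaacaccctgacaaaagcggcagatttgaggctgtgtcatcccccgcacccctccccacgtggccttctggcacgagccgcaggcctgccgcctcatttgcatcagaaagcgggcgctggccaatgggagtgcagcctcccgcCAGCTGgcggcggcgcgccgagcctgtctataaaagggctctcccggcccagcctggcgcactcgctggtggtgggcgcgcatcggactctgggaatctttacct

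To ask whether the age differences were particular to cHCs, the same contrast was fitted in the other kept cells of the 4 libraries, and the difference between both contrasts was tested with library as a block. Among the 2516 other cells, only Hes5, a target of Notch, passed of 13353 genes tested, at 1.41 and 1.62 CPM at P26 and 32.4 and 33.4 CPM at P33 (log2 difference 4.47, edgeR adjusted p = 0.036), with 2162 at an unadjusted p under 0.05. The change in cHCs differed from that in other cells for 137 of 12438 genes (1.1%), 70 with a larger and 67 with a smaller log2 difference in cHCs. With scaling by total UMIs these numbers were 54 and 89. The median difference over all 12438 genes was 0.23. The other cells are a mixture of types, so a difference can come from the cHCs or from the mixture. The mixture held the cells with 5 or more Atoh1 UMIs and no Pou4f3 UMI, 18 and 1 at P26 and 27 and 27 at P33. It is therefore not free of Atoh1-positive cells. The test shares its estimate of spread across genes over only 4 libraries. Its very small adjusted p therefore do not measure the spread of a single gene between libraries.

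Of the 10 genes with the smallest p, 9 went down relative to the other cells. Cdkn1a was at 236 and 137 CPM at P26 and 200.2 and 156 CPM at P33 in the other cells, and its change in cHCs was lower by a log2 difference of -2.60 (SE 0.36, edgeR adjusted p = 4.4e-10). Tubb2b was at 31.0 and 36.9 CPM at P26 and 66.0 and 32.8 CPM at P33 in the other cells and differed by -3.0003 (SE 0.38, edgeR adjusted p = 3.9e-12). Grp, which encodes gastrin-releasing peptide, was at 1362 and 2693 CPM at P26 and 309 and 585 CPM at P33 in cHCs and 214 and 42.4 CPM at P26 and 137 and 182 CPM at P33 in the other cells, a difference of -2.67 (SE 0.33, edgeR adjusted p = 2.8e-12). For all 3 genes the 2 ages overlapped in the other cells and were apart in the cHCs. Gng8, a G protein gamma subunit, was at 800.2 and 409.9 CPM at P26 and 228 and 157 CPM at P33 in cHCs and 18.7 and 7.11 CPM at P26 and 85.3 and 33 CPM at P33 in the other cells, a difference of -3.66 (SE 0.35, edgeR adjusted p = 4.1e-22). Mdk, the growth factor midkine, was at 389 and 1419.8 CPM at P26 and 91.5 and 239 CPM at P33 in cHCs and 546 and 624 CPM at P26 and 821 and 664 CPM at P33 in the other cells, a difference of -2.52 (SE 0.35, edgeR adjusted p = 4.8e-10). The only gene to go up, Gsn, differed by 3.73 (SE 0.50, edgeR adjusted p = 2.5e-10), and without the P33 cell named above it did not pass (edgeR adjusted p = 0.12).

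The other 4 of these genes drew most of their P26 UMIs from 1 cell. The cHC of P26 replicate 1 with the most Krt8 UMIs held 108 of 142 Krt8, 71 of 89 Krt18, 98 of 99 Tnfrsf12a and 87 of 94 Gal UMIs of its library. Krt8 and Krt18 are the paired keratins of simple epithelia, Tnfrsf12a is a receptor of the tumour necrosis factor family, and Gal encodes the neuropeptide galanin. That cell had 22189 UMIs, 148 of Atoh1 and 37 of Pou4f3. Over libraries, Krt8 was at 1024 and 322 CPM at P26 and 118 and 147 CPM at P33, Krt18 at 642 and 117 CPM at P26 and 128 and 60.9 CPM at P33 and Tnfrsf12a at 714 and 29.3 CPM at P26 and 30.5 and 42.1 CPM at P33. Gal had 94 and 0 UMIs at P26 and 1 and 6 UMIs at P33. The differences from the other cells were -3.57 (SE 0.35, edgeR adjusted p = 6.1e-20) for Krt8, -3.12 (SE 0.38, edgeR adjusted p = 4.5e-13) for Krt18, -4.04 (SE 0.40, edgeR adjusted p = 7.2e-20) for Tnfrsf12a and -6.84 (SE 0.76, edgeR adjusted p = 1.2e-15) for Gal. Without the cell, the Tnfrsf12a difference turned positive (0.60, edgeR adjusted p = 0.961) and the Gal difference no longer passed (-3.57, edgeR adjusted p = 0.191), while the differences of Krt8 (-2.42, edgeR adjusted p = 9.5e-08) and Krt18 (-1.65, edgeR adjusted p = 0.028) still did. The P33 against P26 test without the cell called 88 genes, Tnfrsf12a could not be tested in it, and Krt8 itself missed the threshold (log2 difference -1.19, edgeR adjusted p = 0.0563). Faim2, Dync1i1, Anxa2, Xirp2, Cacng2, Id1, Tubb2b, Rps20 and Mdk also missed it then, at edgeR adjusted p of 0.0535 to 0.0679, and Gadd45g at 0.102. Without P26 replicate 1 as a whole, the Tnfrsf12a and Gal differences from the other cells did not pass either (edgeR adjusted p = 0.819 and 0.952).

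**Figure D4:**
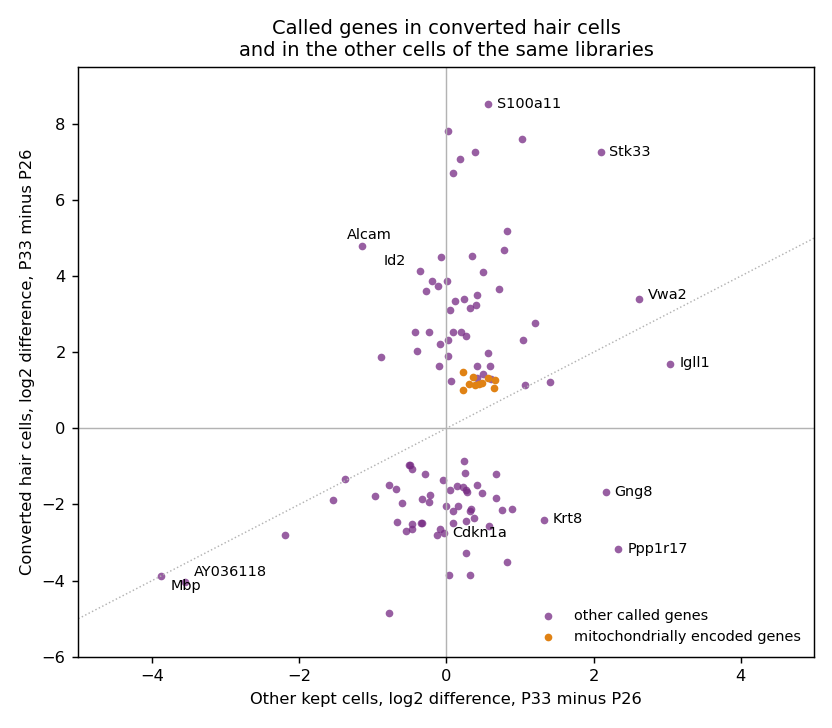
Log2 difference P33 minus P26 in cHCs (vertical) against the same in the other kept cells (horizontal), 1 point for each of 115 called genes with a value in both, mitochondrially encoded genes in orange. Of these, 98 lie within 1 log2 unit of 0 in the other cells, while AY036118 and Mbp lie far below 0 on both axes and Igll1 and Vwa2 beyond 2 on the horizontal one. Fitted values of genes without P26 UMIs depend on a prior count.

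The remaining called genes held several receptors, channels and membrane proteins, all singled out here after their values were seen. Itpr1 and Itpr3 encode inositol trisphosphate receptors that release calcium from stores. Itpr3 was at 123 and 132 CPM at P26 and 358 and 414 CPM at P33 (log2 difference 1.64, SE 0.30, edgeR adjusted p = 0.0133), and Itpr1 had 0 and 1 UMIs at P26 and 32 and 31 UMIs at P33, a ratio of 14.2 (95% counting interval 2.46 to 569) with edgeR adjusted p = 0.049996. Igsf21, a synaptic adhesion protein, had 1 and 0 UMIs at P26 and 61 and 46 UMIs at P33, a ratio of 24.1 (95% counting interval 4.23 to 961) with edgeR adjusted p = 0.0114. Cntnap2, an adhesion protein of axons, had 0 and 1 UMIs at P26 and 72 and 39 UMIs at P33, a ratio of 25 (95% counting interval 4.40 to 996) with edgeR adjusted p = 0.0211. The P26 level of the last 3 rested on 1 UMI each. Fer1l6, a ferlin related to otoferlin by family, was at 36.0 and 73.2 CPM at P26 and 344 and 218 CPM at P33 (log2 difference 2.53, SE 0.45, edgeR adjusted p = 0.0114), and the transcription factor Nfatc1 at 21.6 and 29.3 CPM at P26 and 163 and 117 CPM at P33 (log2 difference 2.54, SE 0.53, edgeR adjusted p = 0.0243). Ezr, which links membranes to actin, was at 21.6 and 58.6 CPM at P26 and 248 and 117 CPM at P33 (log2 difference 2.43, SE 0.60, edgeR adjusted p = 0.0498), and Cpe, which processes peptide hormones, at 123 and 87.8 CPM at P26 and 394 and 274 CPM at P33 (log2 difference 1.63, SE 0.35, edgeR adjusted p = 0.0293). In all of these both P33 libraries were above both P26 libraries.

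Among the remaining lower genes, Cryab, the small heat shock protein alphaB-crystallin, was at 3020.5 and 3059 CPM at P26 and 1155 and 1421 CPM at P33 (log2 difference -1.21, SE 0.21, edgeR adjusted p = 0.0114). Gpx2, a glutathione peroxidase, was at 469 and 1829.7 CPM at P26 and 226 and 246 CPM at P33 (log2 difference -2.18, SE 0.45, edgeR adjusted p = 0.0239), and Cd24a, a surface protein of immature cells, at 259.5 and 234 CPM at P26 and 40.7 and 70.2 CPM at P33 (log2 difference -2.15, SE 0.36, edgeR adjusted p = 0.0114). Both ages were again apart. Marcksl1, an actin-binding protein, was at 375 and 219.6 CPM at P26 and 79.3 and 91.3 CPM at P33 (log2 difference -1.84, SE 0.33, edgeR adjusted p = 0.0130), and Vasp, which promotes actin filament growth, at 123 and 117 CPM at P26 and 18.3 and 23.4 CPM at P33 (log2 difference -2.49, SE 0.44, edgeR adjusted p = 0.0115). Sstr2, a somatostatin receptor, was at 245 and 190.3 CPM at P26 and 44.7 and 63.2 CPM at P33 (log2 difference -2.03, SE 0.36, edgeR adjusted p = 0.0114), and the synaptic vesicle protein Syn2 at 79.3 and 87.8 CPM at P26 and 22.4 and 14.04 CPM at P33 (log2 difference -2.11, SE 0.51, edgeR adjusted p = 0.0490). Genes with near-identical copies, Rps27rt and Rps18-ps3 among the higher and Gm10260 among the lower, are uncertain, because reads can be split between copies.

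Calls were also read cell by cell, as a description of genes that the test had picked. Of the 68 genes higher at P33, the median gene was detected in 25% of the P26 cells and 71.9% of the P33 cells, and its most loaded cell held a median of 8.27% of the P33 UMIs. Of the 57 lower genes, the median gene was detected in 81.3% of the P26 cells and 42.1% of the P33 cells, with 21.6% of the P26 UMIs in 1 cell. One cell held over 50% of the UMIs of its age for 2 higher genes, Gsn and Anxa2, and for 2 lower genes, Krt8 and Tnfrsf12a. The depth per cell differed between the libraries, and with every cell thinned to 3000 UMIs, which left out 2 shallow P33 cells, 24 of 890 genes were called, 21 of them among the 125.

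**Figure D5:**
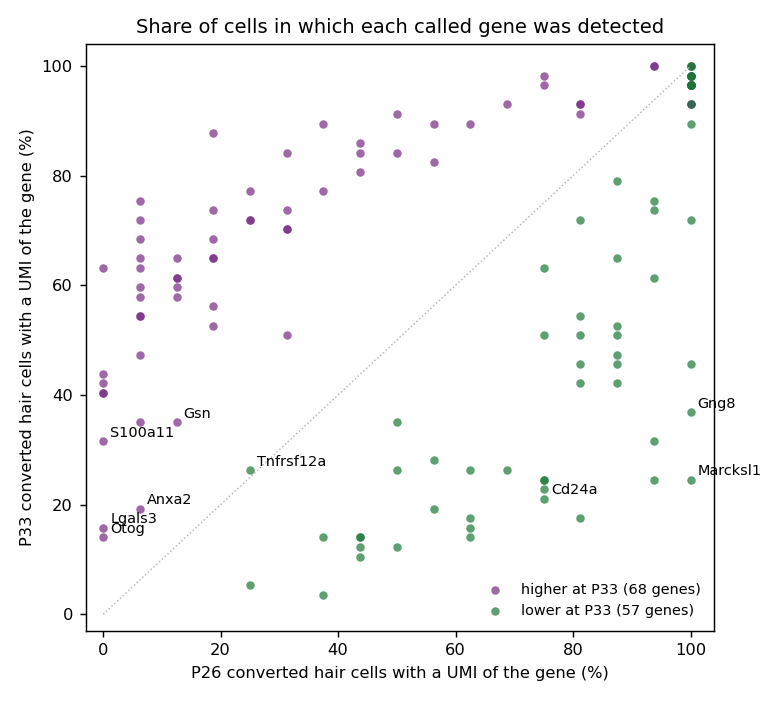
Percent of the 57 P33 cells against percent of the 16 P26 cells with a UMI of each called gene, purple for the 68 higher and green for the 57 lower genes. Otog, Lgals3 and Anxa2 lie near the lower left corner, since few P33 cells held them, whereas most other higher genes were detected in over 40% of the P33 cells.

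Gated HCs and SCs gave a frame for these levels. HCs gated on Pou4f3 and at least 3 Ocm UMIs (51 cells in 7 libraries) and SCs gated on 4 of 8 SC markers without Pou4f3 (807 cells in 8 libraries) were summed per library. Among the 57 genes lower at P33, the median HC level lay above the median SC level for 8 (14.04%), against 44.3% of all genes tested, and for 51 (89.5%) the P33 cHC level was nearer to the HC level than the P26 level was, against 59.0% of all genes, on the log2(CPM + 10) scale. For 38 (66.7%) of them the P33 level was also nearer to the SC level, against 52.97% of all genes. For the 68 higher genes these shares were 42.6%, 36.8% and 29.4%. Among the lower genes, Uchl1, Cdh13, Sstr2 and Syn2 had HC medians of 0 CPM. A gene at 0 CPM in HCs moves nearer to the HC level whenever it falls, so the 89.5% was in part fixed by the choice of genes. Cacng2 had a median of 0 CPM in HCs and 23.5 CPM in SCs. Chrna10 had a median of 324 CPM in HCs and 0 in SCs, and Kncn 351 CPM in HCs and 0 in SCs. In the other direction, Id2 had 139 CPM in HCs and 602 CPM in SCs, S100a11 24.9 and 508 CPM, and Cdkn1a 130.4 and 239.96 CPM. Rab3b, Nhlh1 and Fcgbp were at or near 0 in both, with HC medians of 0, 0 and 10.0 CPM and SC medians of 4.06, 0 and 0 CPM. Their P33 levels in cHCs lay above the medians of both gated classes. Neither gate limited Atoh1, so induced cells could enter both classes, which are not purely native. The largest Atoh1 counts per cell in P33 replicate 1 were 147 UMIs in the SC gate and 37 in the HC gate. The gates hold few HCs, of 2 to 24 per library, and these medians and shares are descriptions without a test, of genes picked for their change.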

How the data were processed

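Mouse organ of Corti cells were profiled by 10x Genomics 3′ single-cell RNA sequencing in 8 libraries. The authors aligned reads to mm10 with Cell Ranger, version not given in the sources used here, and the deposited values are raw UMI counts per gene and barcode for 27998 genes. The counts are not normalised, and transgenic and endogenous Atoh1 transcripts cannot be told apart in them. Groups and replicate numbers came from the labels. UMIs of cHCs were summed per library, because cells are not replicates, and tested with edgeR 4.0.16 in R 4.3.3 (TMM, filterByExpr, quasi-likelihood test, no block) at an adjusted p of 0.05. Doublets were scored with scrublet in scanpy 1.11.5 at 0.8% per 1000 barcodes. DESeq2 1.42.0, limma 3.58.1 and other cell limits, filters and scalings were alternatives. The tests were tested on simulated data. Named genes were the 12 largest called differences per direction with 20 or more UMIs and no overlap, the rule genes, up to 4 called members of each list by p or else the 2 highest, and the 10 smallest p of the difference from the other cells. The cells, gene lists and tests were chosen with earlier results of these data known. The result of 1 called gene is not reported here.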

Additional observations from a re-analysis of the deposited data

Results flagged for a closer look

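In 10 genes the P33 minus P26 difference in cHCs departed from that in the other cells of the same libraries by the test of the difference itself, and these had the smallest p of 137. On the log2 scale the departure was -3.66 for Gng8, -3.57 for Krt8, -4.04 for Tnfrsf12a, -6.84 for Gal, -3.12 for Krt18, -2.67 for Grp, -3.0003 for Tubb2b, 3.73 for Gsn, -2.60 for Cdkn1a and -2.52 for Mdk. For Krt8, Krt18, Tnfrsf12a and Gal most P26 UMIs, and for Gsn most P33 UMIs, came from 1 cell. Groups of 2 libraries were too small to look for outlying libraries.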

How the results depend on the processing

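The P33 against P26 call count was 125. It became 51 with DESeq2, 298 without a low count filter, 7 under 10% mt- UMIs and 24 after thinning. In these settings 50, 124, 5 and 21 of the 125 were called and 125 of 125, 125 of 125, 60 of 61 and 52 of 52 tested kept their direction. Leaving out 1 library gave 73 to 525 calls, the low end without P33 replicate 1 and the high end without P26 replicate 2, which has 4 cells. A lone library is then assumed to vary like the other age. The replicate block gave 298 calls. The labels do not say whether same-numbered libraries share animals or days. Deviations of same-numbered libraries correlated at -0.036. With 2 libraries per age this is a single value, which cannot tell whether they do. The count for the difference from other cells, 137, became 25 with DESeq2 and 35 under 10% mt- UMIs, and 36 to 196 without 1 library, the low end without P33 replicate 1 and 53 without P33 replicate 2. The share difference, 3.80 percentage points, became 0.135 under 10% mt- UMIs and was 2.53 to 5.07 without 1 library. The third P26 library held no cHC, so it could not be added to the gene tests. Its share was 0 of 590 kept cells, and the share difference with it was not computed. Other planned settings left these counts within 1.5 times, but the split of higher and lower calls was 26 and 68 with limma-voom and 210 and 88 without the filter, against 68 and 57. Leaving out the Krt8-rich P26 cell or the Gsn-rich P33 cell was chosen after seeing the data, and gave 88 and 102 calls and 125 and 128 for the difference. Where no value is given, the cause was not tested.

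Signs turned mainly in genes without a call, given as log2 differences. Under 10% mt- UMIs they were -0.30 for Nfia, -0.23 for Barhl1, -0.19 for Cib2 and 0.065 for Cox8a. After thinning they were 0.27 for Cox8a, 0.0027 for Cox4i1, 0.39 for Dynll1 and -0.21 for Ift20. Without the filter they were 0.030 for Cox8a, 0.11 for Cox4i1, 0.088 for Dll3 and 0.14 for Syt7. Syt7 gave 0.0057 with DESeq2, 0.014 with 10 or more Atoh1 UMIs, 0.0090 with no Ocm UMI, 0.0096 with the replicate block and 0.057 without the Gsn-rich cell. Ift20 gave -0.0080 with total UMIs, -0.022 with limma-voom, -0.034 at a mean of 20 UMIs, -0.013 at 1 Pou4f3 UMI, -0.04 at 10 Atoh1 UMIs, -0.0073 with the 3 gene classes left out and -0.058 without the Krt8-rich cell, and Dynll1 gave 0.0042 there. Dll3 gave 0.027 with limma-voom, Xist gave -0.20 with the replicate block, and the Tnfrsf12a departure from other cells gave 0.60 without the Krt8-rich cell. Without 1 library the ranges that crossed 0 were -0.018 to 0.22 for Cib2, -0.081 to 0.073 for Cox4i1, -0.59 to 0.49 for Dll3, -0.51 to 0.14 for Dynll1, -0.057 to 0.29 for Gapdh, -0.25 to 1.17 for H2-D1, -1.52 to 0.47 for Ifitm3, -0.047 to 0.18 for Ift20, -0.10 to 0.16 for Syt7, -7.27 to 11.26 for Xist, -1.28 to 6.33 for Ddx3y, -4.31 to 0.39 for Tnfrsf12a and -8.87 to 6.13 for the Gal departure.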

Other observations

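Markers of other cell types other than lymphocytes were detected in cHCs at both ages, and of those tested only Mbp and Epha4 passed. Macrophage markers summed to 108 and 73.2 CPM at P26 and 433 and 246 CPM at P33 in cHCs, with all 10 detected in each P33 library and 7 and 3 in the P26 libraries. Neutrophil markers summed to 57.7 and 117 CPM at P26 and 234 and 204 CPM at P33. Stromal markers summed to 137 and 117 CPM at P26 and 95.6 and 157 CPM at P33, with Col3a1 at 0. Erythroid markers were the highest of these lists, at 2703 and 1903 CPM at P26 and 1265 and 1765 CPM at P33, beside 2853 and 1829 CPM at P26 and 1262 and 1574 CPM at P33 in SC-gated cells. Spiral ganglion markers summed to 216 and 132 CPM at P26 and 370.0 and 368 CPM at P33, with Prph, Scn1a and Gabra2 at 0. Of that list Epha4 rose (1 and 1 UMIs at P26 and 63 and 49 UMIs at P33, edgeR adjusted p = 0.0114). Reissner membrane markers summed to 159 and 73.2 CPM at P26 and 56.9 and 108 CPM at P33, nonsensory epithelium markers to 137 and 220 CPM and 234 and 358 CPM, and endothelial markers to 28.1 to 36.0 CPM.

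Within the sex-linked genes, Xist was at 0 and 1069 CPM at P26 and 1722 and 2.34 CPM at P33 and Ddx3y at 72.1 and 0 CPM at P26 and 0 and 63.2 CPM at P33 in cHCs, so the replicates of an age differed in sex-linked expression and both ages held both kinds.

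Hes5, a Notch target of SCs, had no UMI in P26 cHCs and stood at 14.2 and 23.4 CPM in the P33 cHCs, in 5 and 3 cells, which was too few UMIs for a test. In SC-gated cells it was at 7.25 and 5.81 CPM at P26 and 100.4 and 129.6 CPM at P33. Both P33 libraries were above both P26 libraries in each class.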
